A study of Mus musculus with 4 samples.

Results

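A stretch of mouse chromosome 16 holds 80 protein-coding genes whose starts lie between positions 56000000 and 78400000 of build GRCm38, a span of 22.4 Mb, and their RNA levels were followed in 4 mammary tumour libraries. These genes, called members here, are 80 of 51826 genes in the table, of which 21793 are protein coding. The stretch was chosen from measured values in the same 4 libraries, so the levels described here are not independent evidence that it stands apart. The 1 collagen gene in the stretch, Col8a1, was left out by the rule.

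All 4 libraries came from C3-T+ mammary tumours of mice, and the groups differ in the Elf5 gene. WT tumours were Elf5+/+ (2 libraries) and HET tumours were Elf5+/- (2 libraries), so HET tumours had a single intact copy. Tumours were dispersed with enzymes, and antibodies to CD45, CD31 and TER119, surface proteins of leukocytes, endothelial cells and red cell precursors, were used in a sort for a fraction enriched in tumour cells. Bulk RNA sequencing then gave an estimated count per gene, and the comparison asks which transcripts differ when Elf5 is partly lost. C3-T is the labels' name for the tumour model, with its driving promoter, the mouse strain and the ages not given in the sources used here. The titles of the HET libraries share a leading number, while those of the WT libraries carry different ones. Whether that number stands for an animal is not stated, so each p-value reflects the spread among these 4 samples alone, which may be technical.

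Elf5 encodes an ETS-family transcription factor of the mammary luminal and alveolar lineage, and the gene does not lie on chromosome 16. Neighbouring genes can share a level across samples when a piece of chromosome is gained or lost in a tumour, when they share a chromatin domain, or when they are used by the same cell type. The stretch described here holds receptors that steer growing axons and cells (Robo1, Robo2, Epha3), genes of cilia and membrane traffic (Arl13b, Arl6, Chmp2b), a cluster of olfactory receptors, and at its distal end a block whose human counterparts lie on the chromosome that is trisomic in Down syndrome (Hspa13, Samsn1, Nrip1, Usp25, Cxadr, Btg3). DNA copy number was not analysed here.

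Totals lay between 12695132 and 15307939 counts. Elf5 itself stood at 35.6 CPM in WT 1, at 4.70 in WT 2, at 5.39 in HET 1 and at 10.6 in HET 2, where CPM puts counts on a common scale of library size and corrects them for library composition by the TMM method. WT 2, labelled Elf5+/+, thus held less Elf5 RNA than either HET library, and is called the library labelled WT 2 below. An RNA level does not give the genotype, and whether the label is right was not tested. The library labelled WT 2 also had 44.5% of the genes in the table at 0, against 29.9% to 31.3% in the others. Summed markers of leukocytes were 14.3 CPM there against 282 to 348 in the other libraries, and all 7 were lowest in it. Macrophage markers summed to 42.7 against 570 to 891, with all 9 lowest there, and endothelial markers to 66.7 against 273 to 488, with all 6 lowest there. Fibroblast markers summed to 21730 against 3908 to 6515, and all 7 were highest in it. Tumour epithelium markers summed to 3574 in WT 1 and 3152 in the library labelled WT 2, with 2349 and 2211 in HET 1 and HET 2. These markers went different ways, with 3 of the 7 highest and 1 lowest in the library labelled WT 2. No gene of the 11 marker lists was at 0 in all libraries and none is a member, and the part of these cell types in the results below was not tested. In bulk samples such as these, fewer cells of a type and less RNA per cell cannot be told apart.

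Most members of high RNA level were highest in the library labelled WT 2 (9 of the 10 with the highest mean CPM, with Tomm70a the exception). On the rest of the chromosome it was highest in 77.6% of 286 tested coding genes with a mean log2 CPM of 3 or more. No member passed the test between genotypes. Members took 0.136% of all counts in WT 1 (95% Clopper-Pearson interval 0.134% to 0.138%) and 0.242% in the library labelled WT 2 (0.24% to 0.245%), while HET 1 gave 0.166% (0.164% to 0.168%) and HET 2 gave 0.156% (0.154% to 0.158%). These intervals cover counting error only. The HET libraries lay close to each other and between the WT libraries.

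Of the 80 members, 48 passed the filter on low counts and were tested. The other 32 comprise 20 of the 25 olfactory receptors and 12 further genes, among them Epha6, Htr1f, Gabrr3 and Gpr15, and the highest level any of them reached was 1.41 CPM. In 2 members the count was 0 in every library. The filter asked for about 0.721 CPM in at least 2 libraries, so counts over the 48 describe only the genes that passed it.

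Among the 48 members tested, 31 were highest in the library labelled WT 2, against 26.6% of all genes tested. WT 1 was lowest in 16, against 19.3% of all genes tested, and both held in 14, against 9.4%. These values chose the stretch, so nothing is read from the contrast with all genes. The same pattern ran over the rest of the chromosome: among 430 coding genes tested on chromosome 16 outside the stretch, the library labelled WT 2 was highest in 59.8% and WT 1 lowest in 39.1%. The library labelled WT 2 stood above both HET libraries in 31 of 48 members, with WT 1 left out, against 33.6% of all genes tested and 62.8% of the coding genes on the rest of the chromosome. With the library labelled WT 2 left out, WT 1 stood below both HET libraries in 23 of 48, against 33.8% and 48.4%. Both counts of members were near the share on the rest of the chromosome.

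Level split the members, as it did other coding genes. For the 30 whose mean log2 CPM was 3 or more, the library labelled WT 2 was highest in 27, compared with 77.6% of 286 such coding genes on the rest of the chromosome and 39.8% of 9930 in the genome. For the 18 below that level it was highest in 4 and lowest in 10. Coding genes of the genome were split as well, with that library lowest in 31.7% of all 15856 tested and in 19.1% of the 9930. On the rest of the chromosome it was lowest in 19.3% of all 430 tested and in 7.3% of the 286. The split by level was therefore not particular to the members, and no share is given for other genes below that level alone. The ratio of the library labelled WT 2 to WT 1 over the 30 ranged from 0.796 to 5.61 with a median of 2.02, and was above 1 in 28 of them. It is a ratio of 2 libraries of the same genotype, with no replicate behind it.

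**Figure D1:**
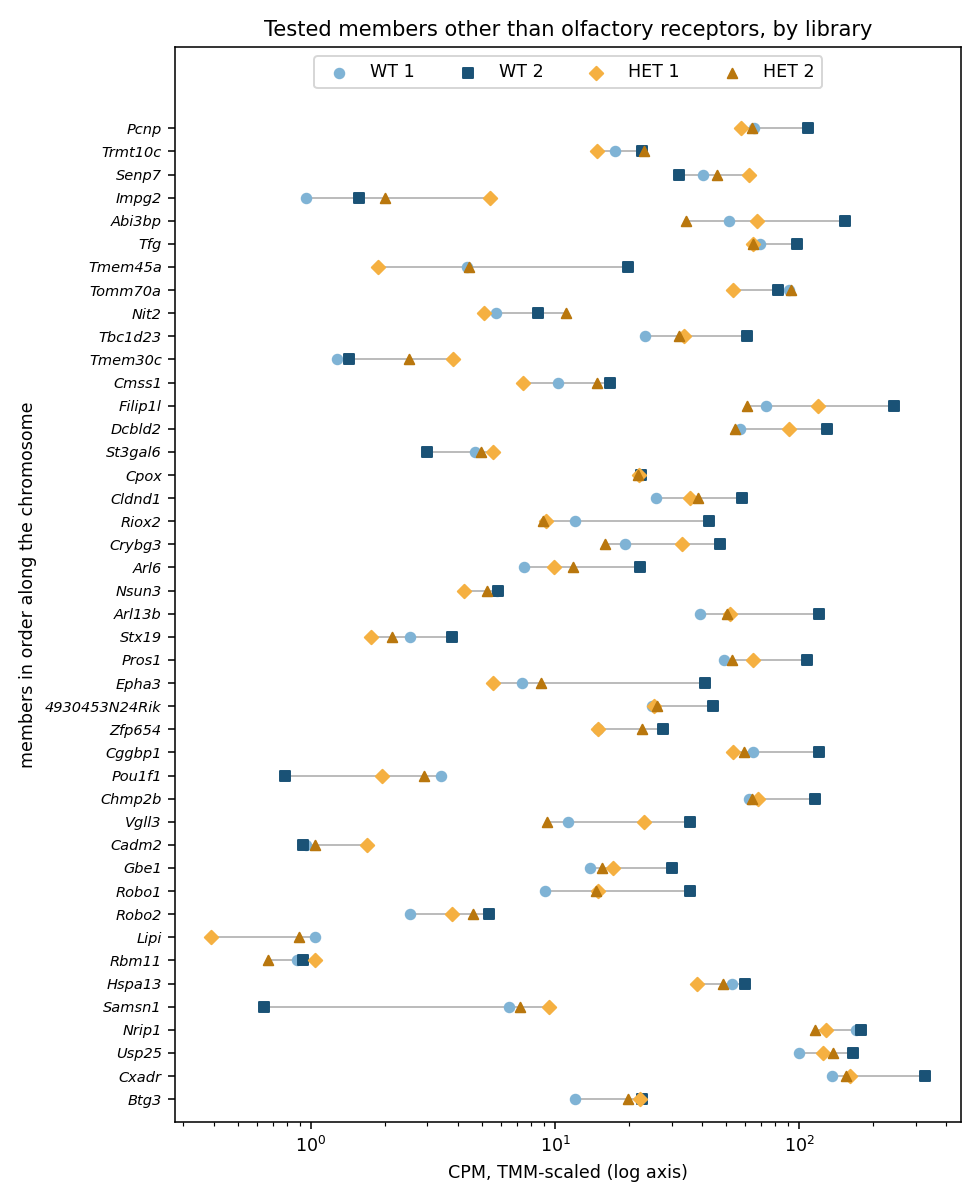
CPM (log axis) of the 43 tested members that are not olfactory receptors, in order along chromosome 16, with a marker for each library and a grey line from the lowest to the highest non-zero value. The library labelled WT 2 (dark squares) is at the right-hand end for most members, including Epha3, Riox2, Arl13b and Cxadr, and at the left-hand end for Samsn1, Pou1f1 and St3gal6, and the 0 of Lipi in that library is not drawn.

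The sequences just before the starts of 4 members are shown as examples of members that were highest in the library labelled WT 2. Tfg carries the ETS-type word described next, Arl13b is a gene of cilia, Riox2 had the smallest p of any member for HET over WT, and Epha3 had the highest ratio of the library labelled WT 2 to WT 1. Each run is the 250 bases before the RefSeq start in build GRCm38.p6, read 5′ to 3′ on the gene's own strand, and no annotated exon of GENCODE lies in them. They are chr16:56717451-56717700 on the minus strand for Tfg, chr16:62847041-62847290 on the minus strand for Arl13b, chr16:59471525-59471774 on the plus strand for Riox2 and chr16:63864176-63864425 on the minus strand for Epha3. Capitals mark the words CCGGAAG (an ETS-type word, with the GGAA core that ETS factors bind), CCAAT and GGGCGG (a GC box), or their reverse complements.

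Tfg: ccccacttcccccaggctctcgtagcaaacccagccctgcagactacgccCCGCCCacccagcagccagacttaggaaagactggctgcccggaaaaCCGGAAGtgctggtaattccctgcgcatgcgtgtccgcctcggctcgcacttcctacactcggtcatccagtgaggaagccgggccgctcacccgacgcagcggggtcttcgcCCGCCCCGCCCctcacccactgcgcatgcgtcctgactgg
Arl13b: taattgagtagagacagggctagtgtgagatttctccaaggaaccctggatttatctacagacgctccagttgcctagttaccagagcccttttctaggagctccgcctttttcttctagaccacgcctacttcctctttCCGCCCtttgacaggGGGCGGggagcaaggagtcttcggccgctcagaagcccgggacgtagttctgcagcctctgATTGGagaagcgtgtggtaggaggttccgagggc
Riox2: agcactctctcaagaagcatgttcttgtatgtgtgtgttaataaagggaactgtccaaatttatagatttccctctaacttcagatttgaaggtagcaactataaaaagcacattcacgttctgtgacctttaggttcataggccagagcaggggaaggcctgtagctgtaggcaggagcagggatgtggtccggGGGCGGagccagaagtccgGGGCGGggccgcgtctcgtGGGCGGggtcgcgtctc
Epha3: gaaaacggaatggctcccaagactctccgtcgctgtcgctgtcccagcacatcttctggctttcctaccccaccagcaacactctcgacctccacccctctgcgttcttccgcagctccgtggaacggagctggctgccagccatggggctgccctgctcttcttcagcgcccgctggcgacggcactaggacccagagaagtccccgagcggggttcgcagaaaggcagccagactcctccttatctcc

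Tfg held 1 ETS-type word and 3 GC boxes, of which 2 overlap by a base. Arl13b held 2 GC boxes and 1 CCAAT word on the reverse strand, Riox2 held 3 GC boxes, and Epha3 held none of the 3 words. RefSeq promoters (250 bases before the start and 50 after it) were found for 66 of the 80 members, some with several starts, 77 promoters in all. On either strand, the ETS-type word was in 9 of these 77 (11.7%), in 8.9% of 32851 promoters of the whole table and in 10.4% of other promoters of chromosome 16. All 9 belonged to the 48 promoters of 37 tested members that are not olfactory receptors (18.8%), and none to the 21 of olfactory receptors. Overlapping promoters of Senp7 share 1 such word, which is counted in each. The 37 genes passed the filter on low counts, and no share is given for promoters of other genes that passed it. The GC box was in 45.8% of those 48 and in 35.7% of all promoters, and CCAAT in 27.1% and 37.4%. Promoters of those members had a median GC content of 60.7%, those of the olfactory receptors 35.0%, and all promoters 52.7%. A match describes the letters and does not show that a factor binds there.

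Receptors and adhesion proteins were among the members with the widest spread between the WT libraries. Cxadr, at chr16:78301489-78359774, encodes the coxsackievirus and adenovirus receptor, an adhesion protein of tight junctions. It had the highest mean CPM of the members, not corrected for length, at 137 in WT 1 and 329 in the library labelled WT 2, with HET 1 at 162 and HET 2 at 155. WT 1 and both HET libraries were close together, and the library labelled WT 2 stood 2.41-fold above WT 1. Dcbld2, a transmembrane protein of the neuropilin-like kind, stood at 57.4 CPM in WT 1 and 130.0 in the library labelled WT 2, with HET 1 at 90.9 and HET 2 at 54.7. Abi3bp, a secreted protein of the extracellular matrix, stood at 51.4, 155, 67.1 and 34.3 CPM in the same order. Each was highest in the library labelled WT 2, and the HET libraries lay on either side of WT 1 for both genes.

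Epha3, at chr16:63543534-63864175, is a receptor tyrosine kinase for ephrins. Its CPM were 7.32 in WT 1 and 41.03 in the library labelled WT 2, with HET 1 at 5.58 and HET 2 at 8.76. The value in the library labelled WT 2 was 5.61-fold that in WT 1, and WT 1 lay between the HET libraries. Robo1, a receptor for the Slit guidance proteins, stood at 9.07, 35.8, 15.0 and 14.7 CPM in the same order. Robo2, its relative, was lower, at 2.55, 5.34, 3.77 and 4.60 CPM. For both Robo genes the HET libraries fell between the WT libraries. The remaining tested members of this role were Crybg3, Impg2 and Cadm2. The median difference of a library from the mean of the other 3, over the 9 tested members of this role, was 1.12 (log2) for the library labelled WT 2 and -0.60 for WT 1. The former was highest in 7 of the 9, against 59.8% of tested coding genes on the rest of the chromosome.

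Genes of transcription, chromatin and RNA held several members with little difference between the WT libraries. Nrip1, at chr16:76287400-76373827, encodes a corepressor of nuclear hormone receptors that acts with oestrogen receptor among others. It stood at 171 CPM in WT 1 and 179 in the library labelled WT 2, with HET 1 at 129 and HET 2 at 117, so both WT libraries lay above both HET libraries. Cggbp1, which binds CGG repeats, stood at 64.9, 121, 53.4 and 59.3 CPM in the same order, again with no overlap between the genotypes. Riox2, at chr16:59471775-59492461, encodes a JmjC-domain oxygenase that acts on a ribosomal protein. Its CPM were 12.01, 42.8, 9.15 and 8.90, with the HET libraries close together and WT 1 much nearer to them than to the library labelled WT 2. Senp7, a protease that trims SUMO chains, ran the other way, at 40.3, 32.1, 62.2 and 46.2 CPM. Btg3, an antiproliferative protein of the BTG family, stood at 12.01 CPM in WT 1 and at 22.6, 22.2 and 19.96 in the other libraries, so WT 1 alone was low. Over the 11 tested members of this role the median difference was 0.38 for the library labelled WT 2 and -0.17 for WT 1.

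Membrane traffic and cilia genes repeated the pattern of the receptors. Arl13b, a small GTPase of the ciliary membrane, stood at 39.4 CPM in WT 1 and 121 in the library labelled WT 2, with HET 1 at 52.2 and HET 2 at 50.5. Arl6, the GTPase that recruits the BBSome to cilia, stood at 7.48, 22.4, 9.87 and 11.8 in the same order. Both were lowest in WT 1 and about 3-fold higher in the library labelled WT 2 (ratios of 3.08 and 2.99). Chmp2b, a subunit of the ESCRT-III complex that cuts membranes of endosomes, stood at 62.2, 116, 68.0 and 64.0 CPM. Tfg, which organises exit sites of the endoplasmic reticulum, stood at 69.4, 97.9, 64.6 and 64.9. Filip1l, a filamin-interacting protein, had the second highest CPM in the library labelled WT 2 among members, at 73.3, 244, 119 and 61.2. In these 3 genes WT 1 stood near the HET libraries or between them. Of the 9 tested members of this role 8 were highest in the library labelled WT 2, with Samsn1 the exception, and the median differences were 0.84 there and -0.73 in WT 1. On the rest of the chromosome that library was highest in 59.8% of tested coding genes, and in 77.6% of those with a mean log2 CPM of 3 or more.

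Samsn1, at chr16:75858793-76022281, encodes an adaptor protein found mainly in blood cells. It stood at 6.44 CPM in WT 1 and 0.641 in the library labelled WT 2, with HET 1 at 9.48 and HET 2 at 7.20. Its low value fell in the library where all 7 leukocyte markers were also lowest, and the part of those cells in it was not tested.

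Genes of mitochondria, metabolism and protein turnover went different ways. Usp25, a deubiquitinase, stood at 100.2 CPM in WT 1 and 166 in the library labelled WT 2, with HET 1 at 125 and HET 2 at 138. Tomm70a, an import receptor of the mitochondrial outer membrane, stood at 90.6, 81.8, 53.4 and 92.6, so HET 1 alone was low. Hspa13, an Hsp70-family chaperone of microsomes, stood at 53.3, 59.8, 38.0 and 49.0. Cpox, an enzyme of haem synthesis, was nearly flat at 22.0, 22.4, 22.0 and 22.0. Nit2, an amidase, was highest in HET 2, at 5.73, 8.55, 5.13 and 11.1, and the lipase Lipi was low, at 1.03, 0, 0.389 and 0.890. The glycogen branching enzyme Gbe1 followed the pattern of the receptors, at 13.9, 30.1, 17.3 and 15.5. Over the 8 tested members of this role the median difference was 0.20 for the library labelled WT 2 and 0.05 for WT 1.

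Secreted and tissue-restricted members had 2 genes tested. Pros1, which encodes the anticoagulant protein S that also binds TAM receptors, stood at 49.4 CPM in WT 1 and 108 in the library labelled WT 2, with HET 1 at 65.0 and HET 2 at 52.9. Tmem45a, a transmembrane protein, stood at 4.38, 19.9, 1.88 and 4.45. Both were highest in the library labelled WT 2, by 2.19-fold and 4.54-fold over WT 1.

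Among members with no role group, Pcnp, a nuclear protein, stood at 65.2 CPM in WT 1 and 109 in the library labelled WT 2, with HET 1 at 57.8 and HET 2 at 64.2. Trmt10c, a subunit of mitochondrial RNase P, stood at 17.6, 22.8, 14.9 and 23.2, and the uncharacterised 4930453N24Rik at 25.1, 44.2, 25.3 and 26.05. Tmem30c, of the family of flippase subunits, was low, at 1.27, 1.42, 3.83 and 2.52, with both HET libraries above both WT libraries.

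All 5 olfactory receptors tested were lowest in the library labelled WT 2, as were 6 of the 43 other tested members (Samsn1, Pou1f1, St3gal6, Senp7, Cadm2 and Lipi) and 38.1% of all genes tested. These 5 receptors all had a mean log2 CPM under 3. Counting them, that library was lowest in 10 of the 18 members of such level, and the part of level was not tested. Olfr204 stood at 8.43 CPM in WT 1 and 3.13 in the library labelled WT 2, with HET 1 at 8.44 and HET 2 at 8.61. Olfr177 stood at 4.30, 1.35, 4.80 and 4.67, and Olfr173 at 4.06, 0.997, 4.35 and 3.41. Olfr190 stood at 1.83, 1.496, 3.64 and 3.41. In the library labelled WT 2, 14 of the 25 receptors had a count of 0, against 4 in WT 1, 8 in HET 1 and 7 in HET 2. A count of 0 allows up to 3 counts, or 0.228, 0.196, 0.206 and 0.236 CPM in the same order of libraries. Olfactory receptors form a multigene family of similar sequences, so how their reads were shared is uncertain.

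Compared per exon length, the members of highest level were Chmp2b at a mean of 40.2 CPM per kb of exon, Tfg at 32.4, Cxadr at 26.4 and Usp25 at 25.4. Gene length varied widely, from a median of 21.2 kb to 965 kb for Cadm2, with Robo1 at 738 kb. Among neighbouring or overlapping genes, 9 pairs overlapped, of which 6 shared exon bases, Cxadr and Btg3 and also Riox2 and Crybg3 among them. Their reads could not be assigned apart with certainty, since the strand setting of the counting is not stated.

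No member differed between the genotypes at a Benjamini-Hochberg adjusted p under 0.05 in edgeR's quasi-likelihood test, against 0% of the 21607 genes tested. At an unadjusted p under 0.05 there was 1 member, Riox2, compared with 817 genes in all (3.78%). DESeq2 called 0 members and 134 genes, and limma-voom called 0 of either. An exact permutation test of 2 libraries against 2 cannot give a p below 0.333. Both HET libraries were above both WT libraries for 9 members, against 19.6% of all genes tested, and below both for 9, against 15.9%.

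The median fitted log2 fold change of HET over WT for the 48 was -0.29, with 16 above 0 and 32 below, and for all genes tested it was 0.04. For Riox2 it was -1.60 ± 0.62 (SE, n = 2 per genotype), with an adjusted p of 0.986 in edgeR's quasi-likelihood test. Among the 9 with both HET libraries below, the next 4 by p were Cggbp1 at -0.72 ± 0.37, Nrip1 at -0.51 ± 0.28, Pcnp at -0.51 ± 0.34 and Hspa13 at -0.38 ± 0.29, none past the threshold. Of the 9 members with both HET libraries above both WT libraries, the 5 of smallest p were at 1.54 ± 0.75 for Impg2, a matrix proteoglycan of the retina at 0.955, 1.57, 5.39 and 2.00 CPM, then 1.23 ± 0.63 for Tmem30c, 0.58 ± 0.31 for Senp7, 1.08 ± 0.59 for Olfr190 and 1.24 ± 0.97 for Samsn1.

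The spread between the WT libraries was wider than the difference between genotypes. On the centred log2 scale the median member stood at -0.25 in WT 1 and 0.43 in the library labelled WT 2, with HET 1 at -0.07 and HET 2 at -0.01. The SD was 0.48 within WT and 0.04 within HET (n = 2 each), and HET minus WT was -0.13. The sign of the median fold change rested on 1 library: without the library labelled WT 2 it was 0.16, with 30 members above 0 and 18 below, and 22 of 48 changed sign. Without WT 1 it was -0.54, and edgeR's quasi-likelihood test then called 3 members, Riox2 at -2.24 (adjusted p = 0.0241), Epha3 at -2.52 (adjusted p = 0.0253) and Samsn1 at 3.68 (adjusted p = 0.0352). That fit called 657 of all genes tested, or 3.04%. In it the lone WT library is the one labelled WT 2, and it is assumed to vary like the HET libraries. The replicate spread in that fit comes from the HET libraries alone, whose titles share a leading number. Whether the spread within HET lies between animals or within 1 animal is not stated.

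**Figure D2:**
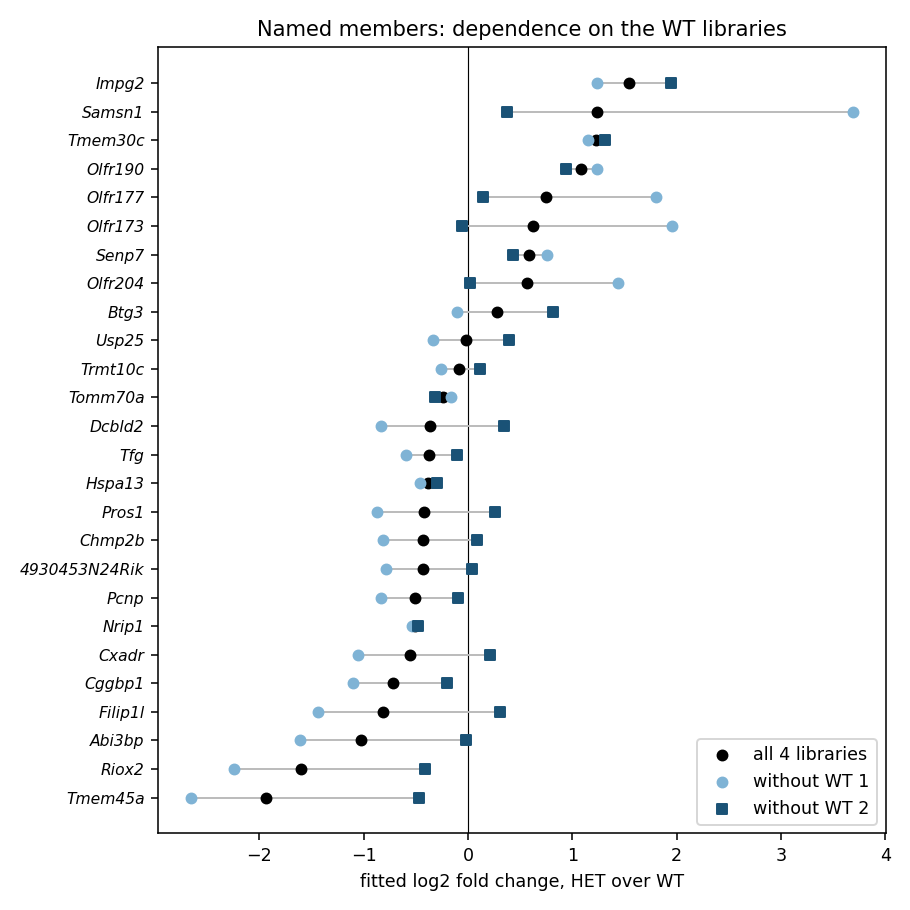
Fitted log2 fold change of HET over WT (horizontal axis) for the 26 named members, with all 4 libraries (black), without WT 1 (light circles) and without the library labelled WT 2 (dark squares), and a grey line across the 3 values. Without the library labelled WT 2 the values of Cxadr, Pros1, Filip1l and Dcbld2 move from below 0 to above it.

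Across chromosome 16 the library-level pattern was not limited to the stretch. In 23 bins of 4 Mb with at least 5 tested coding genes, the median difference of the library labelled WT 2 was above 0 in all 23, from 0.20 to 1.04. WT 1 was below 0 in 22 of them, with bins from -0.87 to 0.08. HET 1 was below 0 in 19 and HET 2 in 13. Bins of the stretch ranged from 0.24 (6 genes) to 0.96 (5 genes) for the library labelled WT 2, within the range of the bins outside it. The bin just above the stretch held only 2 tested coding genes, with a median of -1.65 in that library, and was left out of these counts.

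**Figure D3:**
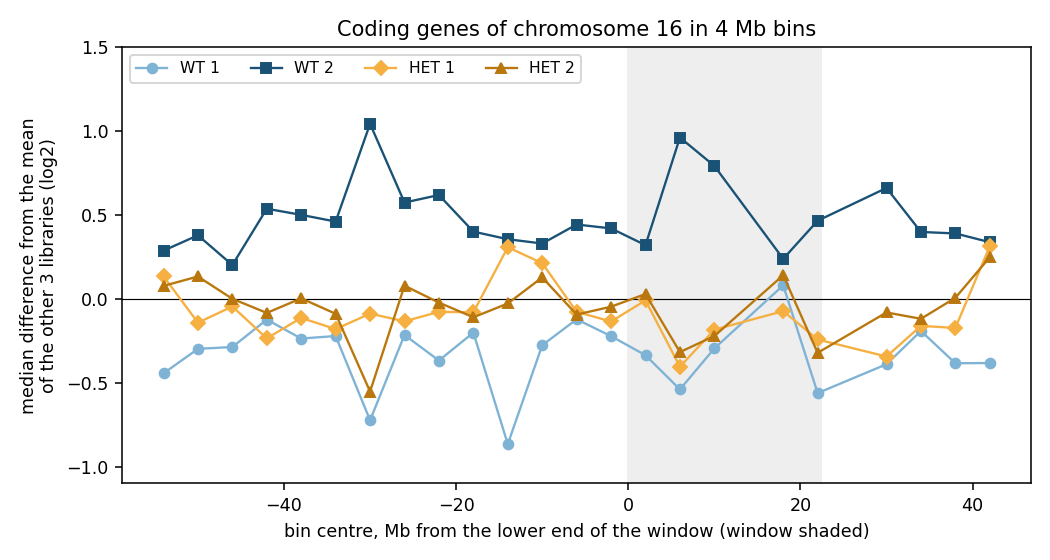
Median difference of each library from the mean of the other 3 (log2) for tested coding genes in 4 Mb bins of chromosome 16, against the distance of the bin centre from the lower end of the stretch in Mb, with the stretch shaded and bins of fewer than 5 genes left out. The dark squares of the library labelled WT 2 lie above 0 in all 23 bins, from 0.20 to 1.04, inside and outside the shading.

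The median difference over members was 0.57 for the library labelled WT 2, compared with 0.46 over 351 coding genes below the stretch and 0.42 over 79 above it, and -0.11 over all genes tested. For WT 1 it was -0.34 over members, -0.26 below, -0.32 above and 0.11 over all genes tested. The HET libraries stayed within 0.13 of 0 in the members and on either side of the stretch. Just outside the lower end, Zbtb11 stood at 53.5 CPM in WT 1 and 95.8 in the library labelled WT 2, with HET 1 at 53.5 and HET 2 at 62.2, near the values of Pcnp just inside it. Zbtb11 and Pcnp share exon bases, so their counts may share reads. Rpl24, the next gene out, stood at 76.0, 92.7, 39.5 and 181. Beyond the upper end D16Ertd472e stood at 11.0, 28.6, 12.9 and 12.5, and Ncam2 at 1.43, 0.641, 1.23 and 1.56. Of these 4 neighbours, Zbtb11 and D16Ertd472e were highest in the library labelled WT 2. The collagen gene left out, Col8a1, stood at 153, 434, 159 and 111.

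Compared with other chromosomes, chromosome 16 gave the highest median difference of all 20 for the library labelled WT 2, at 0.46 over 479 genes, followed by chromosome 9 at 0.30. For WT 1 it ranked second lowest at -0.27, after chromosome 9 at -0.37. These are descriptions of 1 library each.

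**Figure D4:**
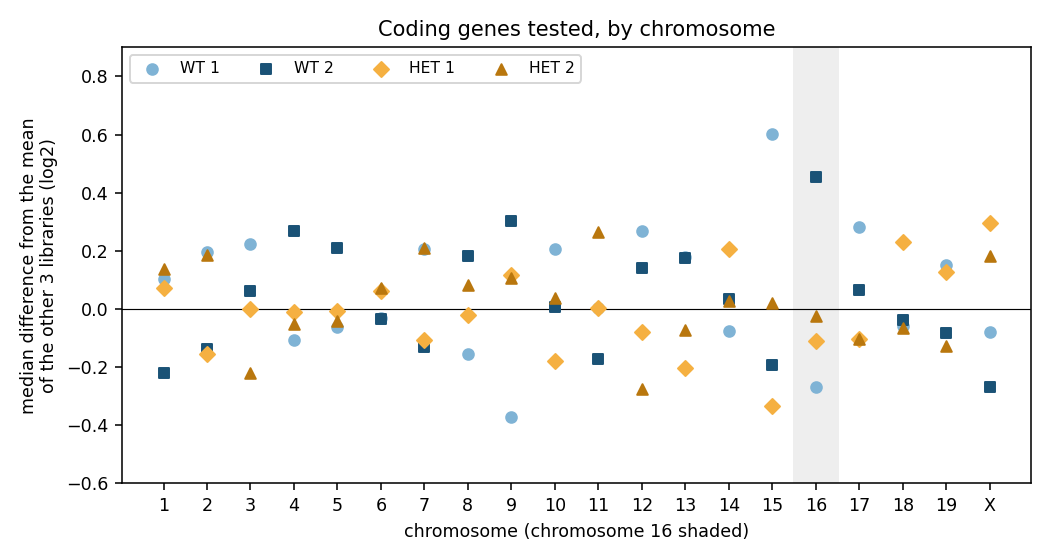
Median difference of each library from the mean of the other 3 (log2) for tested coding genes, by chromosome, with chromosome 16 shaded. The library labelled WT 2 (dark squares) is highest on chromosome 16 at 0.46, and WT 1 (light circles) is highest on chromosome 15 at 0.60 and lowest on chromosome 9 at -0.37.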

How the data were processed

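RNA was measured in 4 libraries, 2 WT and 2 HET, and the authors deposited estimated counts per gene. Per the submitters' processing notes, Salmon and build GRCm38.p5 were used. Its version, the annotation and the strand setting were not given in the sources used here. The deposited estimated counts were whole numbers. Of 51826 gene IDs, 51633 matched GENCODE M21 (47648 with the same version) and 193 did not. Rows without a gene name numbered 0, as did columns from other samples. Genes were tested in edgeR 4.0.16 (R 4.3.3) with filterByExpr (10 counts, or 0.721 CPM), TMM scaling and the quasi-likelihood F test, genotype being the only term. Each SE was taken as the absolute log2 fold change over the square root of the F statistic. Log2 CPM used a prior count of 2. The filter left 21607 genes, 15856 of them coding. Biological variation (common coefficient) came to 0.46, on 2 residual degrees of freedom. The test was tested on simulated data, where recovery of true differences was required only at a lower biological variation than 0.46. Data were also simulated at 0.46 with no recovery required there, so passing the check does not show what could be detected in these libraries.

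The members, gene lists and role groups were chosen with earlier results of these data known. Role groups are broad lists whose names need not describe each gene in them. Samsn1 and Filip1l stand under membrane traffic and cilia, and Abi3bp and Impg2 under receptors and adhesion. Named genes are the 10 members of highest mean CPM, the 3 of highest CPM in each role group, those past the threshold, up to 5 per direction of smallest p whose genotypes do not overlap, and the 2 genes inside and outside each end. Alternatives were other scalings (relative log expression, upper quartile, total counts), other filters, DESeq2 1.42.0, limma-voom (limma 3.58.1), another prior count and leaving out each library. The split at a log2 CPM of 3 and the counts of highest and lowest libraries were added after seeing the data. Promoters are from RefSeq (GRCm38.p6).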

Additional observations from a re-analysis of the deposited data

How the results depend on the processing

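With 2 libraries per genotype, small differences in single members were not detectable at this depth and spread, and large ones could also be missed. Tmem45a, at a log2 fold change of -1.94, had an adjusted p of 0.986 in edgeR's quasi-likelihood test. No paired analysis was possible because the labels name no pairing of WT with HET libraries. Genes past the threshold numbered 324 with no filter beyond 1 count, 134 with DESeq2, and 0 to 657 when each library was left out (657 without WT 1, 9 without the library labelled WT 2). Members past it numbered 1 with no filter beyond 1 count (Epha3) and 0 to 3 when each library was left out. The members' median log2 fold change ranged from -0.54 to 0.16 when each library was left out. The median difference over members was 0.22 for the library labelled WT 2 with no filter beyond 1 count. In genes of other biotypes in the stretch it was 0.0609 there and 0.29 in WT 1. The cause was not tested. Total counts moved the median log2 fold change of all genes from 0.04 to 0.22, and the members relative to it stayed at -0.32, against -0.33.

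Of 312 values of named members under alternatives, 294 kept direction and side of the threshold and 16, in 11 genes, changed sign, 12 of them on leaving out a library. Log2 fold changes reversed with total counts for Trmt10c (0.10) and Usp25 (0.17), and for Usp25 with upper-quartile scaling (0.0676) and limma-voom (0.0262). Leaving out each library gave -0.52 to 0.13 for Trmt10c, -0.75 to 0.0520 for Tomm70a, -1.46 to 0.30 for Filip1l, -0.85 to 0.34 for Dcbld2, -0.0624 to 1.95 for Olfr173, -0.87 to 0.26 for Pros1, -0.78 to 0.0354 for 4930453N24Rik, -0.81 to 0.0862 for Chmp2b, -0.34 to 0.39 for Usp25, -1.06 to 0.21 for Cxadr and -0.10 to 0.81 for Btg3.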

Other observations

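The stretch also holds 91 genes of other biotypes, of which 17 were tested. Gm31258 stood at 36.9 CPM in WT 1 and 11.3 in the library labelled WT 2, with HET 1 at 68.7 and HET 2 at 39.3. Gm16892, an antisense gene, stood at 7.16, 2.99, 12.01 and 12.02, and without stated strand its reads cannot be told apart from those of the gene it overlaps. Mir99ahg, the host transcript of a microRNA cluster, stood at 10.7, 11.5, 8.24 and 8.98. These 3 were picked after their values were seen. The library labelled WT 2 was highest in 6 of the 17 and lowest in 7. Among the 18 coding members with a mean log2 CPM under 3 it was highest in 4 and lowest in 10, and no test compares these sets. Over all genes tested that library was highest in 26.6% and lowest in 38.1%.

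Other chromosomes also differed between the libraries. Over tested coding genes, chromosome 15 had a median difference from the other 3 libraries of 0.60 in WT 1 and -0.19 in the library labelled WT 2, with HET 1 at -0.33 and HET 2 at 0.02. Chromosome 9 had -0.37, 0.30, 0.12 and 0.11 in the same order. The X chromosome had -0.08, -0.27, 0.30 and 0.18.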
